A study of Mus musculus with 4 samples.

Results

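The Wnt ligands, receptors and pathway genes described here are 52 genes picked by symbol from the 25793 listed in the deposited count tables. They comprise 14 ligand genes, 14 receptor genes, 6 genes of secreted antagonists, 6 of the R-spondin axis, 6 of beta-catenin and its cytoplasmic regulators, 4 TCF/LEF genes and 2 further targets, Notum and Tbx3. All 52 symbols were found. RNA sequencing had been carried out on 4 mouse liver libraries. Tumours 1 and 2 were labelled as liver tumours of mice with the genotype beta-2SP+/- ; SMAD3+/-, heterozygous at the genes of an adaptor protein (beta-2 spectrin) and of Smad3, which together carry TGF-beta signals to the nucleus. The other libraries were labelled as normal liver of a mouse of that same genotype (called double heterozygous below) and as normal liver of a wild type mouse. Neither the age of the animals nor whether the tumours came from separate mice is given in the labels. The submitters' short descriptions carry the word Tcell for both tumours and name hepatocytes for both normal libraries, and they carry Elf for tumour 1 and Smad for tumour 2. Whether the tumour RNA came from whole tissue or from cells isolated or grown from it is not stated in the labels, and the comparison with normal liver cannot tell such a difference in material apart from tumour against normal.

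Wnt ligands are lipid-modified secreted proteins that bind Frizzled receptors with the co-receptors LRP5 or LRP6 and thereby keep beta-catenin from being broken down by a complex of AXIN, APC and GSK3B. Beta-catenin that escapes the complex joins TCF/LEF factors on DNA, and among the genes it switches on are inhibitors of the pathway itself, such as Axin2, Nkd1, Notum, Rnf43 and Znrf3. In normal liver, endothelial cells of the central vein supply Wnt ligands and R-spondin, and the hepatocytes around that vein carry the target genes.

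Gene counts totalled 11049931 (tumour 1), 13295216 (tumour 2), 15950426 (double heterozygous normal) and 18448621 (wild type normal). The normal tables were closer to each other than separate libraries are. Counts were identical in both normal tables for 56.8% of the genes whose mean lay between 1 and 5, while the tumours had identical counts for 13.1% of such genes. Of the 52 Wnt genes, 21 had equal counts in the normal tables, 30 were higher and 1 lower in the one labelled wild type. The normal tables were therefore averaged and counted as 1 sample, and tests of tumours against normal liver rest on the spread between the tumours alone, which may be technical. The labelled tissue was checked against cell type markers. The 8 hepatocyte markers summed to 2493 and 2888 counts in tumours 1 and 2, most of them from Hnf4a (2323 and 1991), against 1602002 and 1815433 counts in the normal tables. Of 11 T cell markers, 7 had 0 counts in both tumours, Cd3e, Cd3d, Cd3g, Cd4 and Cd8a among them, and the list summed to 15 and 71 counts in tumours 1 and 2 against 55 and 75. In tumour 2, 59 of the 71 counts came from Thy1, which had 0 counts in tumour 1 and in both normal tables. Kupffer cell and macrophage markers (288 and 89 against 1409 and 1551), erythroid (1 and 1 against 772 and 705), B cell (0 and 1 against 33 and 47) and general leukocyte markers (83 and 5 against 150 and 168) were lower in the tumours as sums. Within these lists Marco (121 and 1 against 12 and 18) and Cd52 (17 and 1 against 3 and 4) went the other way in tumour 1. Cd68 (30 and 65 against 21 and 23) did so in tumour 2. Neutrophil markers were few throughout (24 and 33 against 10 and 15). In bulk RNA, fewer cells of a type and less RNA per cell cannot be told apart.

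Between the tumours and normal liver, 1 Wnt gene rose and 1 fell. The ligand gene Wnt7b rose, with no counts in either normal table, and the receptor gene Fzd4 fell. Of the 52 genes, 44 passed the low-count filter and 42 of these did not pass the test (edgeR quasi-likelihood test, adjusted p under 0.05 over 14468 genes). Across all genes tested, 7.42% were called, 2.23% rose and 5.19% fell, so the shares of Wnt genes called (1 of 44 in each direction) were at and below this background. At an unadjusted p under 0.05, 6 Wnt genes were higher and 5 lower, where 12.5% and 15.5% of all genes were. The median log2 fold change was 0.67 over the Wnt genes tested and 0.19 over all genes tested. Both tumours lay above normal liver for 19 of the 44 Wnt genes tested (43.2%) and below it for 14 (31.8%), where 43.1% and 40.1% of all genes tested did. The test has 1 residual degree of freedom.

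**Figure D1:**
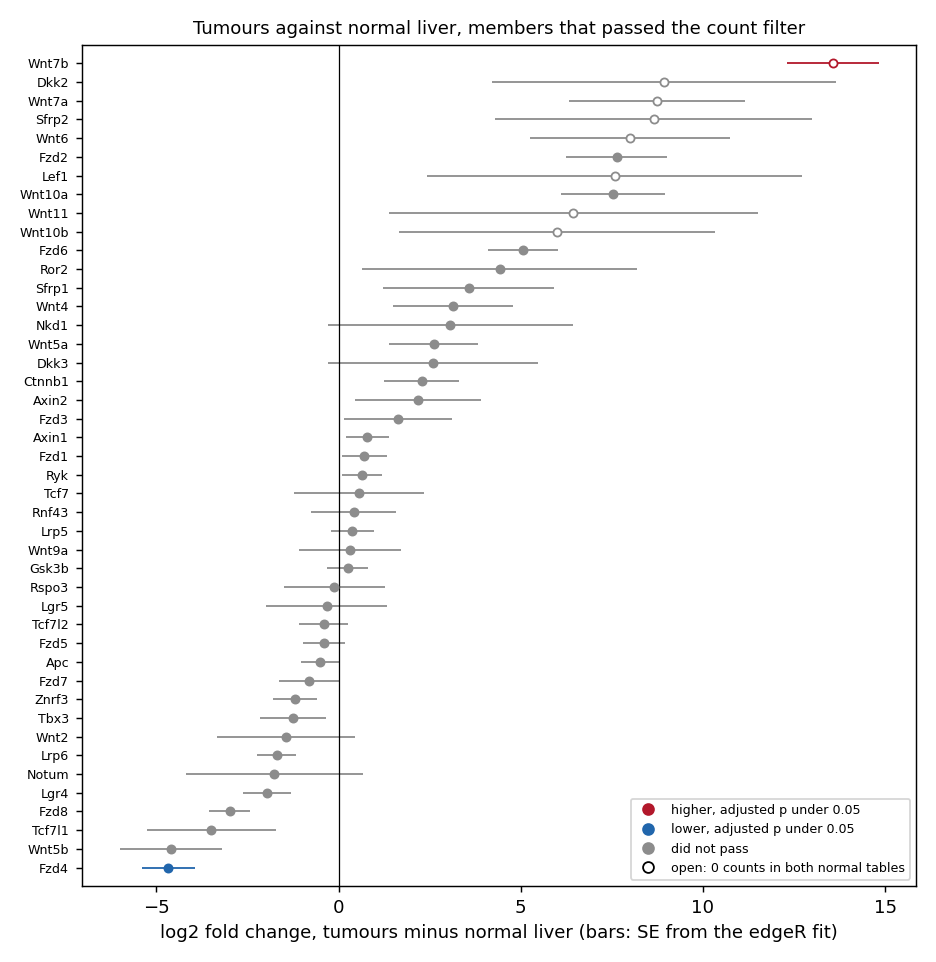
Log2 fold changes of the 44 Wnt genes that passed the count filter, tumours minus normal liver, with standard errors (SE) from the edgeR fit. Wnt7b (13.57) and Fzd4 (-4.67) passed the test, and the open points, fitted against 0 normal counts, depend on the prior count.

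Among the ligands, the tumours held mainly Wnt7b, a ligand known from lung, kidney and brain vessel development. Wnt7b had 1661 and 1908 counts in tumours 1 and 2, against 0 and 0 in the normal tables labelled double heterozygous and wild type. Both tumours stood far above normal liver and close to each other, at 107 ± 6.71 CPM (SD, n = 2; CPM scaled by TMM to the library's total of gene counts). With a floor of 3 counts in the normal library, Wnt7b was at least 326-fold higher in the tumours (edgeR adjusted p = 0.0205). In a fit of all 4 libraries it passed against the double heterozygous table (adjusted p = 0.0189) and against the wild type table (adjusted p = 0.0183). Here and below, results of that fit are not separate support, since the tumours are the same and the normal tables share counts. Its close relative Wnt7a had 49 and 78 counts in tumours 1 and 2 against 0 and 0, at least 11.4-fold higher, and did not pass (adjusted p = 0.112). Bile duct markers moved with Wnt7b: the 8 cholangiocyte markers, Krt7, Krt19 and Spp1 among them, summed to 42741 and 42188 counts in tumours 1 and 2 against 476 and 511 in the normal tables. Epcam and Cftr went the other way in tumour 2, with 356 and 4 counts of Epcam in tumours 1 and 2 against 46 and 48, and 466 and 7 counts of Cftr against 15 and 16. The 6 mesothelial markers, mostly Msln, summed to 9086 and 4316 counts against 90 and 98. After scaling, Gpm6a (2 and 16 counts against 10 and 11) and Lrrn4 (4 and 0 against 3 and 3) lay below normal liver in both tumours. The part of the bile duct and mesothelial markers in the values of Wnt7b, or in those of Wnt10a, Fzd2 and Fzd6 given next, was not tested.

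Wnt10a, a ligand of tooth and skin appendage development, was the second most abundant ligand gene per exon length in tumour 1 and in tumour 2. Wnt10a had 468 and 228 counts in tumours 1 and 2, against 1 and 1 in the normal tables. Both tumours lay above normal liver, as they did for 43.1% of all genes tested. The log2 fold change of 7.53 (SE 1.43) narrowly missed the threshold (edgeR adjusted p = 0.0572). Wnt6 had 26 and 51 counts in the tumours against 0 and 0 (at least 6.83-fold higher, adjusted p = 0.159). Wnt4, at 87 and 37 counts against 4 and 5, and Wnt5a, a ligand best known for signalling without beta-catenin, at 86 and 341 counts against 17 and 19, lay above normal liver in both tumours after scaling and did not pass (adjusted p = 0.290 and 0.247).

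Wnt5b, Wnt2 and Wnt9b were lower in both tumours than in normal liver after scaling, and none of them passed or, for Wnt9b, entered the test. Wnt5b, a relative of Wnt5a, had 2 and 11 counts in tumours 1 and 2, against 80 and 86 in the normal tables (log2 fold change -4.60, SE 1.41, edgeR adjusted p = 0.132). Wnt2 and Wnt9b are the ligands known from liver sinusoidal and central vein endothelium. Wnt2 had 2 and 33 counts in the tumours against 24 and 25, so that after scaling both tumours lay below normal liver, tumour 2 only slightly (1.77 CPM against 2.63 CPM). Wnt9b had 0 and 1 counts in the tumours against 8 and 8, too few to be tested. Endothelial markers moved in the same libraries: Stab2, Tie1 and Kdr had at most 9 counts in either tumour, Clec4g and Emcn 0 in both, and the 10 markers summed to 27.1 and 75.9 CPM in tumours 1 and 2, against 311 CPM in normal liver. Nearly all of the tumours' sum was Thbd, which went the other way, with 392 and 1388 counts in tumours 1 and 2 against 42 and 42 in the normal tables. Their part in the ligand values was not tested.

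The remaining ligands differed between the tumours or were barely detected. Wnt9a had 23 and 113 counts in tumours 1 and 2 against 26 and 29, with tumour 1 below and tumour 2 above normal liver. Wnt10b (1 and 19 counts against 0 and 0) and Wnt11 (0 and 28 against 0 and 0) were seen almost wholly in tumour 2. Wnt2b and Wnt3 had at most 1 count in any library. Of the 5 ligand genes outside the set, Wnt1, Wnt3a, Wnt8a, Wnt8b and Wnt16, none exceeded 2 counts in any library and none was tested.

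Set on a common scale of RPKM (the scaled CPM divided by the exon length in kilobases, from GENCODE M21), the order of the ligand genes differed between tumours and normal liver. In tumours 1 and 2 the level of Wnt7b was 22.8 and 20.9 RPKM, followed by Wnt10a at 12.8 and 4.96 RPKM. In normal liver the level of Wnt5b was 3.43 RPKM, followed by Wnt2 at 1.17 RPKM, and Wnt7b was not detected.

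**Figure D2:**
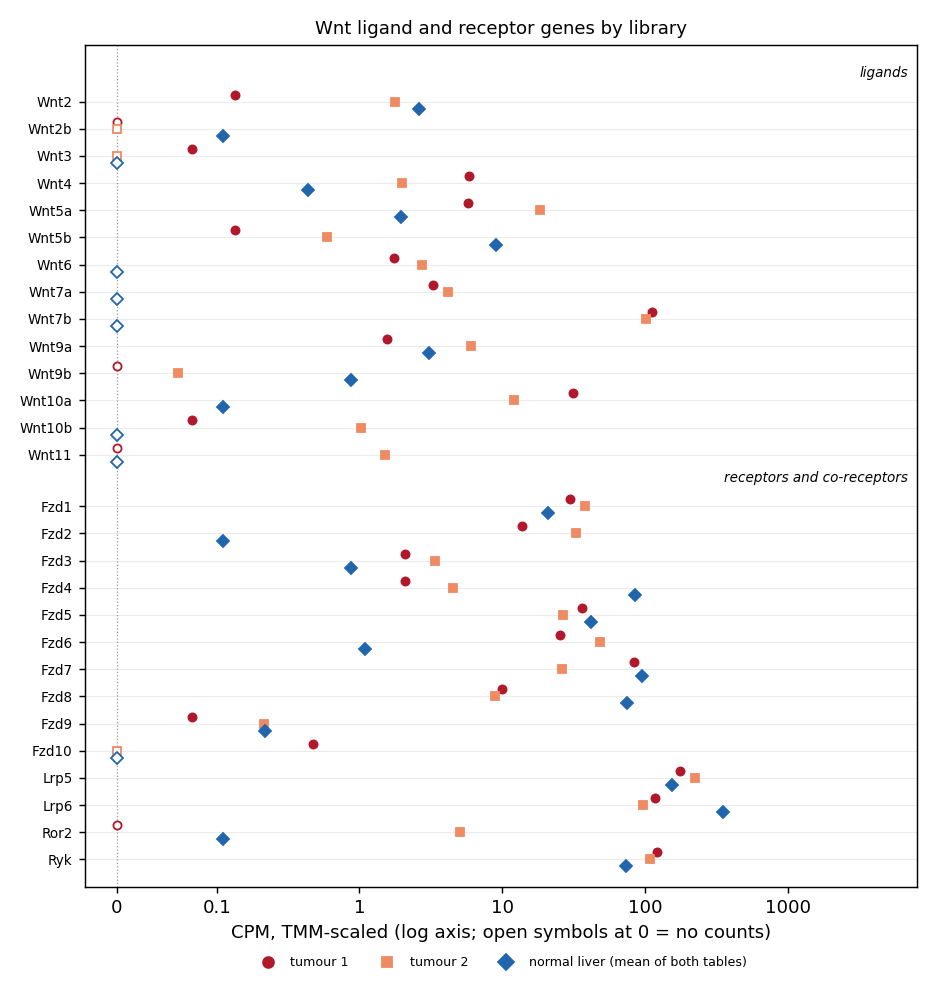
Levels of the 14 ligand and 14 receptor genes in tumour 1, tumour 2 and normal liver (mean of both normal tables) in TMM-scaled CPM on a log axis, with open symbols for 0 counts. Wnt7b stands near 107 CPM in both tumours and at 0 in normal liver, and Fzd4 and Fzd8 lie above both tumours in normal liver while Fzd2 and Fzd6 lie below.

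The Frizzled receptor genes differed in which members were present. Fzd4, a receptor for Wnts and for Norrin that is known from blood vessels, had 31 and 85 counts in tumours 1 and 2, against 760 and 792 in the normal tables labelled double heterozygous and wild type. Both tumours lay far below normal liver, at 3.33 ± 1.75 CPM (SD, n = 2) against 85.1 CPM. Fzd4 thus fell 25.5-fold (log2 fold change -4.67, SE 0.74, edgeR adjusted p = 0.0424), and in the fit of all 4 libraries it passed against the double heterozygous table (adjusted p = 0.0347) and the wild type table (adjusted p = 0.0343). The call was lost without scaling beyond library size (-3.29, adjusted p = 0.0743). The endothelial markers described with Wnt2, Thbd excepted, were lower in the same tumours, and their part in the Fzd4 value was not tested.

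Fzd8 went in the direction of Fzd4, with 149 and 167 counts in tumours 1 and 2 against 661 and 716 in the normal tables. The tumours were close to each other: Fzd8 averaged 9.50 ± 0.76 CPM there (SD, n = 2), while normal liver had 75.4 CPM (log2 fold change -2.99, SE 0.56). Fzd8 missed the threshold against the averaged normal liver (edgeR adjusted p = 0.0557) and passed it in the fit of all 4 libraries, against the double heterozygous table (adjusted p = 0.0454) and the wild type table (adjusted p = 0.0455). With only 1 of these tables in the fit it passed against neither (adjusted p = 0.0539 for the double heterozygous and 0.0532 for the wild type table).

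Fzd2 and Fzd6 stood the other way round. Fzd2 had 203 and 616 counts in tumours 1 and 2, against 1 and 1 in the normal tables. Fzd6, a receptor known for planar cell polarity, had 375 and 903 counts in the tumours against 9 and 12. Both tumours lay above normal liver for Fzd2 and for Fzd6, as they did for 43.1% of all genes tested. The log2 fold changes of 7.63 (SE 1.38) and 5.06 (SE 0.95) just missed the threshold (edgeR adjusted p = 0.0532 and 0.0563). In the fit of all 4 libraries Fzd2 passed against the wild type table (adjusted p = 0.0488) and not against the double heterozygous table (adjusted p = 0.0572).

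The other Frizzled genes differed less between tumours and normal liver. Fzd7 had 1238 and 486 counts in tumours 1 and 2 against 865 and 878, and was the gene furthest in the direction of tumour 1 among the members with at least 10 counts in a tumour (log2 fold change against normal liver -0.80, SE 0.84, and 0.55 without scaling). Fzd5 had 537 and 497 counts in the tumours against 381 and 378, which after scaling put both tumours below normal liver (log2 fold change -0.41, SE 0.58), and above it without scaling (0.96); its counts are uncertain because 17.2% of its 31-base sequences also occur in another gene. Fzd1 (446 and 713 counts against 189 and 190) and Fzd3 (31 and 63 against 7 and 8) did not pass (edgeR adjusted p = 0.484 and 0.503). Fzd9 and Fzd10 had at most 7 counts in any library.

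The co-receptor genes were abundant in all libraries. Lrp6 had 1747 and 1813 counts in tumours 1 and 2 against 2974 and 3404, at 107 ± 14.4 CPM (SD, n = 2) against 350 CPM (log2 fold change -1.70, SE 0.54, edgeR adjusted p = 0.141). Lrp5, its relative, had 2620 and 4210 counts in the tumours against 1360 and 1454, and after scaling differed little from normal liver (0.38, SE 0.58, adjusted p = 0.693). Ryk, an atypical kinase that binds Wnt5a, had 1804 and 2005 counts in the tumours against 627 and 720 (0.63, SE 0.55, adjusted p = 0.485). Ror2, a receptor kinase that also binds Wnt5a, had 0 and 94 counts in tumours 1 and 2 against 1 and 1, so it was seen almost only in tumour 2. Per exon length, the leading receptor genes were Ryk (26.8 RPKM), Fzd7 (18.4 RPKM) and Lrp5 (18.1 RPKM) in tumour 1, Ryk (23.7 RPKM), Lrp5 (23.2 RPKM) and Fzd6 (10.1 RPKM) in tumour 2, and Lrp6 (25.6 RPKM), Fzd7 (21.1 RPKM) and Ryk (16.3 RPKM) in normal liver.

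Beta-catenin itself was the most abundant transcript of the set in the tumours, per exon length as well as in counts. Ctnnb1 had 32237 and 14727 counts in tumours 1 and 2, against 2712 and 2859 in the normal tables. Both tumours lay above normal liver, tumour 1 further than tumour 2 (2170 and 790 CPM against 305 CPM), and the difference did not pass (log2 fold change 2.28, SE 1.03, edgeR adjusted p = 0.236). Per exon length this was 418 and 152 RPKM in the tumours against 58.8 RPKM in normal liver. In Ctnnb1, 13.2% of the 31-base sequences are shared with another gene. Gene counts do not show whether the transcript carries a mutation.

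The genes of the destruction complex differed less. Axin1, the main scaffold, had 1222 and 1127 counts in tumours 1 and 2 against 367 and 388 (log2 fold change 0.79, SE 0.58, edgeR adjusted p = 0.423). Apc had 2047 and 1976 counts in the tumours against 1520 and 1618 (-0.50, SE 0.54, adjusted p = 0.583), and Gsk3b, the kinase that marks beta-catenin for breakdown, had 1984 and 1877 against 868 and 935 (0.25, SE 0.56, adjusted p = 0.799). For Apc the sign depended on the scaling, with 0.87 when no scaling was used. Tcf7l2, the TCF gene best known in liver, had 286 and 227 counts in the tumours against 170 and 211 (-0.41, SE 0.68, and 0.96 without scaling).

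The tumours differed from each other in many of the Wnt genes. Ratios in this paragraph carry a prior count of 2 unless stated otherwise. Of the 44 Wnt genes with at least 10 counts in either tumour, 0 were over 4-fold higher in tumour 1 and 14 (31.8%) were over 4-fold lower in tumour 1 than in tumour 2. Over all 13582 genes compared in this way, 5.57% were higher and 9.85% lower by that bound. The median log2 ratio of tumour 1 to tumour 2 was -1.01 over the Wnt genes and -0.03 over all genes. The 14 genes were the feedback and target genes Axin2, Nkd1, Notum, Rnf43 and Lgr5, the factors Lef1 and Tcf7, the antagonists Dkk2, Dkk3 and Sfrp2, the receptor gene Ror2 and the ligand genes Wnt2, Wnt10b and Wnt11. Without a prior count, Tcf7l1 (9.56-fold), Wnt5b (4.38-fold) and Sfrp1 (4.18-fold) were also over 4-fold lower in tumour 1. This compares 1 library with 1, so there is no test, and the intervals given cover counting error only.

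**Figure D3:**
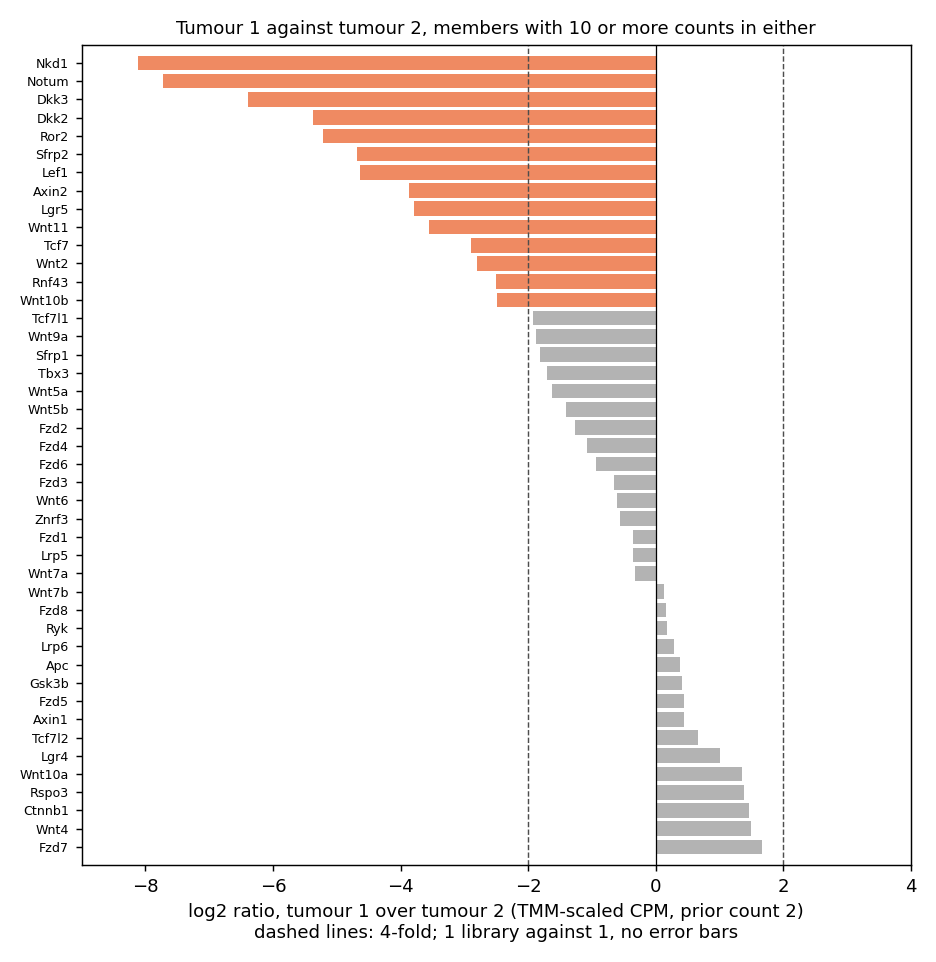
Log2 ratios of tumour 1 over tumour 2 (TMM-scaled CPM, prior count 2) for the 44 Wnt genes with 10 or more counts in either tumour, with dashed lines at 4-fold. The 14 coloured bars reach from Wnt10b to Nkd1 on the side of tumour 2, and no bar passes 4-fold on the side of tumour 1.

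Axin2, a scaffold of the destruction complex that is used as a general readout of Wnt signalling, had 102 and 1907 counts in tumours 1 and 2, against 99 and 120 in the normal tables. After scaling, tumour 1 lay below normal liver and tumour 2 above it (6.87 and 102 CPM against 12.1 CPM). The log2 ratio of tumour 1 to tumour 2 was -3.90 (95% counting interval -4.20 to -3.61). Nkd1, which binds Dishevelled and restrains the pathway, had 0 and 722 counts in the tumours against 20 and 22. With a floor of 3 counts in tumour 1, tumour 2 was at least 192-fold higher.

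Notum, an enzyme that strips the lipid from Wnt ligands, had 1 and 817 counts in tumours 1 and 2 against 640 and 720 in the normal tables. Tumour 2 thus held 43.9 CPM against 74.5 CPM in normal liver, and tumour 1 was almost without the transcript (log2 ratio of tumour 1 to tumour 2 -9.35, counting interval -14.65 to -6.86). Of the 31-base sequences of Notum, 33.0% are shared with another gene. Lgr5, an R-spondin receptor and stem cell marker of the gut, had 13 and 259 counts in the tumours against 84 and 85 (log2 ratio -3.99, interval -4.92 to -3.19). Rnf43, a ubiquitin ligase that removes Frizzled from the cell surface, had 147 and 1065 counts in the tumours against 196 and 264 (log2 ratio -2.53, interval -2.79 to -2.28). Tumour 1 lay below and tumour 2 above normal liver for Lgr5 and Rnf43.

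The relatives of these genes differed less between the tumours. Znrf3, the partner of Rnf43, had 253 and 471 counts in tumours 1 and 2 against 413 and 467, with both tumours below normal liver after scaling (log2 fold change -1.19, SE 0.60, edgeR adjusted p = 0.274; 0.19 without scaling). Tbx3, a T-box factor and target of beta-catenin in liver, had 82 and 342 counts in the tumours against 240 and 285. Lgr4, the widely expressed R-spondin receptor, had 1670 and 1037 counts in the tumours against 2921 and 3080, and is a member of which tumour 1 held more (log2 fold change against normal liver -1.97, SE 0.66, adjusted p = 0.153). Rspo3, the R-spondin of central vein endothelium, had 53 and 24 counts in the tumours against 22 and 25, and Rspo1 had at most 1 count in any library.

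Among the TCF/LEF factors, Lef1 had 0 and 62 counts in tumours 1 and 2 against 0 and 0 in the normal tables, at least 16.5-fold higher in tumour 2 than in tumour 1. Tcf7 had 8 and 92 counts in the tumours against 15 and 19 (log2 ratio of tumour 1 to tumour 2 -3.20, interval -4.45 to -2.16). Tcf7l1 had 1 and 12 counts in the tumours against 31 and 44, so that both tumours lay below normal liver (log2 fold change -3.50, SE 1.77, edgeR adjusted p = 0.275). Lef1 and Tcf7 are themselves known targets of the pathway in other tissues. Of the 31-base sequences of Lef1, 14.6% are shared with another gene.

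The secreted antagonists followed the same split between the tumours. Dkk3 had 1 and 320 counts in tumours 1 and 2 against 13 and 13 in the normal tables (log2 ratio of tumour 1 to tumour 2 -7.99, interval -13.30 to -5.51). Dkk2, which blocks LRP5 and LRP6, had 1 and 158 counts in the tumours against 0 and 0 (log2 ratio -6.98, interval -12.29 to -4.48). Sfrp2, which binds Wnt ligands outside the cell, had 2 and 129 counts against 0 and 0 (log2 ratio -5.68, interval -8.74 to -3.80). All 3 were sparse in tumour 1 and present in tumour 2. Sfrp1 had 8 and 42 counts in the tumours against 1 and 1, Wif1 at most 3 counts in any library, and Dkk1 0 counts in all. In Sfrp2, 13.7% of the 31-base sequences are shared with another gene.

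Markers of fibroblasts and stellate cells separated the tumours in the same direction. The 11 markers summed to 82 and 15152 counts in tumours 1 and 2 (5.52 and 813 CPM), against 2066 and 2171 counts in the normal tables (232 CPM). In tumour 2 most of these came from Col1a2 (5230 counts), Col1a1 (3757), Acta2 (2245), Col3a1 (2190) and Pdgfrb (1527), while the stellate and portal fibroblast markers Lrat, Lum and Hand2 were at 0 in both tumours. Most of the normal sum came from Reln and Dcn, which were lower in both tumours, tumour 2 included. Reln had 0 and 3 counts in tumours 1 and 2 against 1040 and 1077, and Dcn had 19 and 154 against 580 and 605. The part of these markers in the values of the antagonists, Ror2, Lef1 and the feedback genes was not tested.

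**Figure D4:**
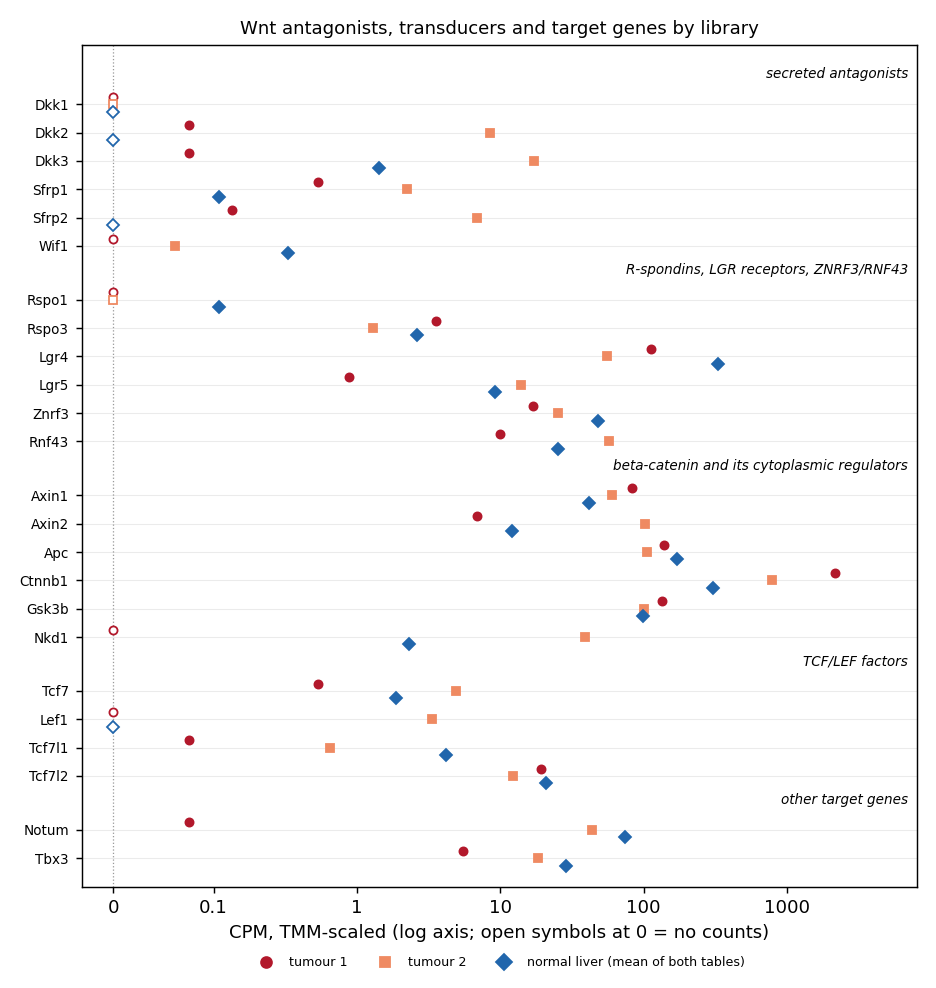
Levels of the antagonists, the R-spondin axis, beta-catenin and its regulators, TCF/LEF factors and 2 other targets in TMM-scaled CPM on a log axis, with open symbols for 0 counts. Axin2, Nkd1, Notum, Lgr5, Rnf43, Lef1, Tcf7, Dkk2, Dkk3 and Sfrp2 are lower in tumour 1 than in tumour 2 (Notum stays below normal liver in both), whereas Ctnnb1 is higher in tumour 1 (2170 CPM) than in tumour 2 (790 CPM).

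Promoter sequences from RefSeq (GRCm38.p6) were found for 34 of the 52 genes, with 44 start sites. In the 250 bases before each start, the TCF/LEF motif was searched on both strands as the core CTTTG followed by 2 bases that are each A or T. The core was also searched alone, so every match of the motif is a match of the core. The motif was present in 6 of the 44 windows (13.6%), and in 14.8% of all 32851 promoter windows of this length. The core was present in 45.5% of the Wnt gene windows and in 48.6% of all windows. The windows shown are those of Fzd4, which fell in the tumours (chr7:89404116-89404365, plus strand), of the feedback genes Axin2 (chr11:108920099-108920348, plus strand) and Nkd1 (chr8:88527383-88527632, plus strand), and of 1 of the 4 annotated starts of Lef1 (chr3:131156044-131156293, plus strand). Capitals mark the core on either strand.
Fzd4: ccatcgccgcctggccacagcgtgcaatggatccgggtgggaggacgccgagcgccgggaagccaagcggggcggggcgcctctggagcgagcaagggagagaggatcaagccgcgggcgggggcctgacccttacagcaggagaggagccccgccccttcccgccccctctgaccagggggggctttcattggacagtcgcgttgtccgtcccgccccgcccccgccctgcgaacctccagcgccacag
Axin2: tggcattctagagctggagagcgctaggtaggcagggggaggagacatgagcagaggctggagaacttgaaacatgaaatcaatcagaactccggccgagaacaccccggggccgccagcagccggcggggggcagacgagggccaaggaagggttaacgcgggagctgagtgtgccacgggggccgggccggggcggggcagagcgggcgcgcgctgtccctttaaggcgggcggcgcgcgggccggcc
Nkd1: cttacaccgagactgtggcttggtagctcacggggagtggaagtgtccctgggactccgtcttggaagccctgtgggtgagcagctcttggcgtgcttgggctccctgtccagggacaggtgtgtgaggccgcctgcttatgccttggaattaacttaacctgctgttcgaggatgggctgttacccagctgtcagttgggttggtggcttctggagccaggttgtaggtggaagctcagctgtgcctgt
Lef1: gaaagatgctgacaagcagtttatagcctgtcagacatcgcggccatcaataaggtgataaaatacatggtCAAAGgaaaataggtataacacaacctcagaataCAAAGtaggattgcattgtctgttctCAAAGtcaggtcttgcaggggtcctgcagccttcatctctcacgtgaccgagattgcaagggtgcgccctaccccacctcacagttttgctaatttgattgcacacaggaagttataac
The Lef1 window held the core 3 times, at 179, 145 and 119 bases before the start, and the full motif 1 time. It was shown because it holds the most matches of the 4 Lef1 windows: the other 3 held the core 1, 2 and 1 times and the full motif 0 times. The windows of Fzd4, Axin2 and Nkd1 held neither, which says only that these letters are not in these 250 bases.

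Genes of the pathway outside the set were counted from lists of 109 further genes found in the tables, of which 89 were tested. Among them 6 rose and 10 fell, where 2.23% of all genes tested rose and 5.19% fell. Of the 10 that fell, 9 were on the list of pericentral hepatocyte genes given below, and the other was Gpc4. Wls, the carrier that brings Wnt ligands to the cell surface, rose, with 4355 and 4269 counts in tumours 1 and 2 against 24 and 30 in the normal tables (log2 fold change 6.46, SE 0.81, edgeR adjusted p = 0.0287). Porcn, the enzyme that attaches the lipid to Wnt ligands, had 61 and 82 counts in the tumours against 53 and 70 and did not pass (adjusted p = 0.677). Of 13 further receptor and planar polarity genes, Ptk7, a co-receptor, rose (532 and 535 counts against 9 and 8; 5.19, SE 0.84, adjusted p = 0.0440, and 0.0502 without the table labelled wild type). Gpc4, a heparan sulfate proteoglycan, fell (169 and 269 counts against 1935 and 2013; -4.07, SE 0.54, adjusted p = 0.0321, and 0.0610 without scaling).

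In each of the next 3 lists edgeR called at most 1 gene, where 2.23% of all genes tested rose and 5.19% fell. Of 24 regulators around Dishevelled and the destruction complex 1 rose, Csnk1e, a kinase of Dishevelled (1802 and 2543 counts in tumours 1 and 2 against 69 and 88; log2 fold change 3.91, SE 0.66, edgeR adjusted p = 0.0472). Of 17 nuclear cofactors 1 rose, the corepressor gene Ctbp2 (1567 and 1469 counts against 18 and 27; 5.25, SE 0.76, adjusted p = 0.0361). Of 15 further antagonist and R-spondin genes 4 were tested and 0 passed, with 1 higher and 0 lower at an unadjusted p under 0.05. DESeq2 called 2 of the 15 higher, Apcdd1 and Lgr6, and 0 lower, where it called 9.36% and 9.3% of all genes with counts. Apcdd1 had 1 and 209 counts in tumours 1 and 2 against 0 and 1, so it was seen almost only in tumour 2. Lgr6 had 36 and 143 against 0 and 1. The rounded normal mean of Apcdd1 and of Lgr6 was 0 in this comparison. In the edgeR fit of all 4 libraries, the log2 fold change of Apcdd1 was 9.19 against the double heterozygous and 5.68 against the wild type table. For Lgr6 these values were 9.03 and 5.52. DESeq2 called 1 higher and 2 lower of the 24 regulators, and 1 higher and 1 lower of the 17 cofactors.

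Target genes outside the set were read from lists for other tissues and for liver. Of 15 targets known mainly from other tissues, Ccnd1 rose by 5.32 on the log2 scale (SE 0.88, edgeR adjusted p = 0.0456) and Cd44 by 6.45 (SE 0.82, adjusted p = 0.0294). Both tumours lay above normal liver for Ccnd1 and for Cd44, as they did for 43.1% of all genes tested. Ccnd1 (cyclin D1) had 11287 and 17364 counts in tumours 1 and 2 against 193 and 193, and Cd44, a hyaluronan receptor, had 5725 and 6405 against 39 and 38. Ccnd1 shares 22.3% of its 31-base sequences with another gene. Sp5, a direct target in many tissues, had 15 and 338 counts in tumours 1 and 2 against 12 and 13, and Tnfrsf19 had 6 and 1270 counts against 38 and 40. Sp5 and Tnfrsf19 were thus split between the tumours as Axin2 was (log2 ratios of tumour 1 to tumour 2 -4.17, interval -5.02 to -3.42, and -7.40, interval -8.85 to -6.27). The 15 targets were not all split in this way. With a prior count of 2, their log2 ratios had a median of -0.82 and reached from -6.97 (Tnfrsf19) to 0.96 (Ephb3). Myc, at 569 and 1293 counts in the tumours against 436 and 457, did not pass (log2 fold change 0.14, SE 0.65, adjusted p = 0.905).

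Of 17 pericentral hepatocyte genes outside the set, 9 fell and 0 rose, where 5.19% of all genes tested fell. Sp5 is counted here as well as among the targets from other tissues. Both tumours lay below normal liver for 15 of the 17 and above it for 1, Ahr. Ahr had 1056 and 6439 counts in tumours 1 and 2 against 443 and 484 and did not pass (log2 fold change 2.03, SE 1.17, edgeR adjusted p = 0.322). Before adjustment, 0 of the 17 stood higher and 14 lower at p under 0.05 (where 15.5% of all genes tested were lower), and DESeq2 called 0 higher and 14 lower (9.36% and 9.3% of all genes with counts). Cyp2e1, the ethanol-oxidizing cytochrome, had 16 and 18 counts in tumours 1 and 2 against 177521 and 194440 in the normal tables. Cyp1a2 had 0 and 2 counts in the tumours against 20220 and 20623, and Gulo, of vitamin C synthesis, had 0 and 1 against 8359 and 8801. Their adjusted p values (edgeR) lay between 0.0182 and 0.0205. Slco1b2, a bile acid and drug transporter gene, had 4 and 6 counts in the tumours against 46566 and 49971, Cyp27a1 had 41 and 27 against 12804 and 14066, and Rgn had 13 and 6 against 7925 and 8451 (adjusted p = 0.0182, 0.0205 and 0.0205). Slc1a2, a glutamate transporter gene, kept more, with 178 and 325 counts in the tumours against 3844 and 3986 (log2 fold change -4.86, SE 0.59, adjusted p = 0.0278). Nr1i3 and Rhbg had 0 counts in both tumours, at least 1900-fold and 142-fold lower (adjusted p = 0.0215 and 0.0420, that of Rhbg 0.0628 without scaling), and share 68.1% and 60.8% of their 31-base sequences with another gene. Glul, glutamine synthetase of the innermost pericentral cells, kept 4170 and 1850 counts in the tumours against 5865 and 8166 and did not pass (log2 fold change -2.02, SE 0.83, adjusted p = 0.205). The hepatocyte markers named in the opening were low in the same tumours, and their part in these falls was not tested.

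**Figure D5:**
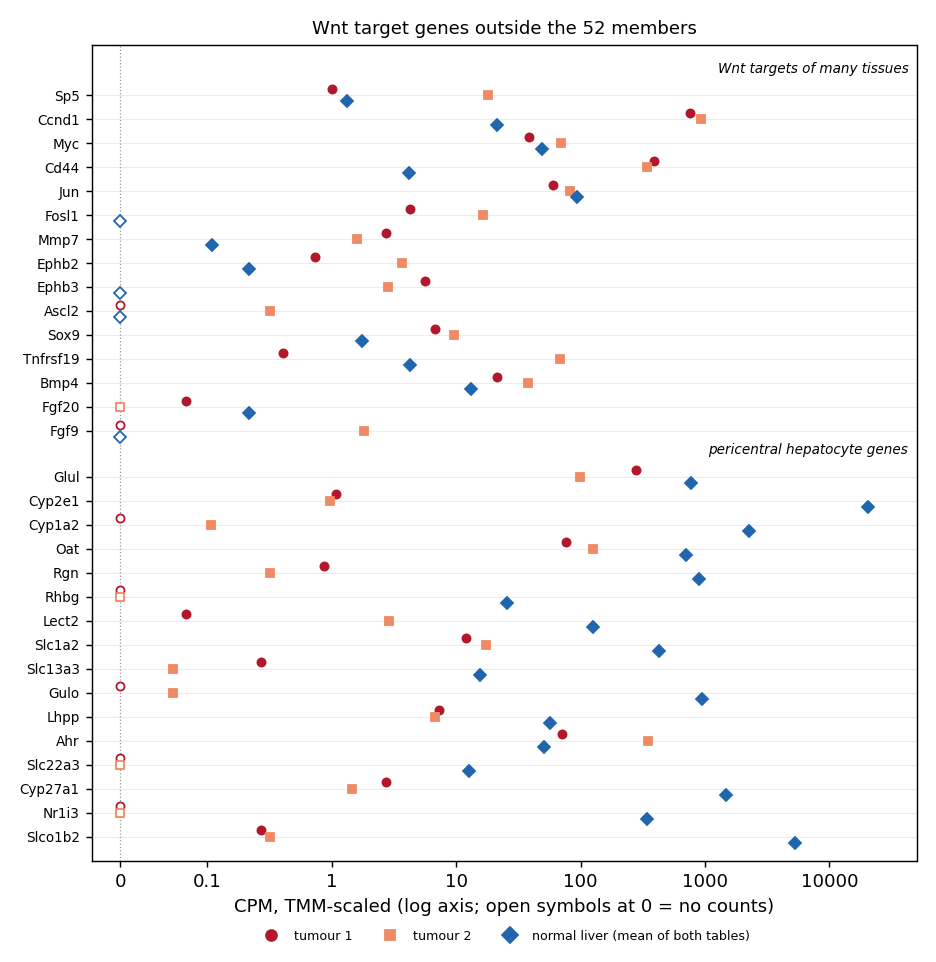
Levels of Wnt target genes outside the set in TMM-scaled CPM on a log axis, for tumour 1, tumour 2 and normal liver, with open symbols for 0 counts. Cyp2e1, Cyp1a2, Gulo and Slco1b2 lie far below normal liver in both tumours, whereas Sp5 and Tnfrsf19 are higher in tumour 2 than in tumour 1 and in normal liver.

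The normal tables gave no contrast of genotype for the set. Of the 30 Wnt genes with at least 10 counts in either normal table, 0 differed over 2-fold between the double heterozygous and the wild type table, against 5.55% of all 12505 genes compared. Their log2 ratios ranged from -0.21 to 0.30. Tcf7l1, with 31 counts in the double heterozygous and 44 in the wild type table, stood at the low end, and Fzd5, with 381 and 378 counts, at the high end. Since the normal tables were closer than separate libraries are, this cannot show whether the genotype alters these genes. Against each normal table in a fit of all 4 libraries, 3 Wnt genes passed against the double heterozygous table (Wnt7b, Fzd4 and Fzd8) and 4 against the wild type table (Wnt7b, Fzd4, Fzd8 and Fzd2), where 7.87% and 9.7% of all genes tested did.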

How the data were processed

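Bulk RNA was sequenced from 4 mouse liver libraries. Per the labels' protocols, TRIZOL served for RNA extraction and an Illumina TruSeq kit for the libraries. The submitters' processing notes name FastQC, Trimmomatic, TopHat2 2.0.10, HTSeq, DESeq2 and mm9 without role or order; strand and counting settings are not given. Raw read counts by gene symbol were deposited, with no normalization by the authors. The 5 lines that name no gene were left out of library sizes; of the column totals, 13.6% to 31.5% were reads outside genes and 30.7% to 51.5% alignments that were not unique.

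The members and lists were chosen with earlier results of these data known. Named genes are the 52 members and the called genes of the other lists. Porcn, Apcdd1, Lgr6, Sp5, Tnfrsf19, Ephb3, Myc, Glul and Ahr were named after their values were seen. Tests used edgeR 4.0.16 in R 4.3.3 (TMM, filterByExpr at 10 counts, glmQLFit, glmQLFTest, Benjamini-Hochberg adjustment over all genes), with tumours 1 and 2 against the rounded mean of the normal tables. The common dispersion was 0.442. SE is the absolute log2 fold change over the square root of F. Ratios between the tumours use exact 95% binomial counting intervals; floors are 3 counts per library (0.202 and 0.161 CPM in tumours 1 and 2, 0.329 CPM in normal liver). They cover counting error only, as the reads carry no molecular identifiers. Exon lengths and shared 31-base sequences came from GENCODE M21 (GRCm38), of another build than the counts; 6 members share over 10%, Rspo3 (12.2%) among them. Alternatives covered scaling, filter, threshold, prior count, DESeq2 1.42.0, the normal tables, and each tumour left out.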

Additional observations from a re-analysis of the deposited data

How the results depend on the processing

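The call of Wnt7b held in every alternative with a test, with adjusted p between 3.29e-07 and 0.0216. Fzd4 lost its call without scaling and kept it in the others. The count of Wnt genes called was 2 (1 higher, 1 lower) and became 6 with RLE factors (4 and 2) and with no filter (4 and 2), 4 with upper quartile scaling (3 higher), 4 without scaling (4 and 0), 8 with DESeq2 (5 and 3), 15 with the normal tables as separate libraries (9 and 6) and 6 at a threshold of 0.1 (4 and 2). The genes gained by RLE factors were Wnt10a, Fzd2, Fzd6 and Fzd8. Without 1 of the normal tables the count ranged from 2 to 3, the higher genes from 1 to 2. Against the table labelled double heterozygous, 3 genes became 5 under upper quartile scaling. Of the other pathway genes 16 were called (6 higher, 10 lower), against 25 with no filter (18 lower), 31 with DESeq2 (10 and 21), 54 with separate normal tables (28 and 26) and 26 at 0.1 (19 lower). All genes called numbered 1073 of 14468, and of the same 14468 they were 1352 with RLE factors and 1101 with upper quartile scaling. They were 2286 of 18506 with no filter, 3454 of 18506 with DESeq2 and 6215 of 13511 with separate normal tables. The counts of Wnt genes called are to be read beside these totals, and no such total is given for the threshold of 0.1. The fit with separate normal tables takes its spread in part from tables that share counts. Leaving out scaling shifted the median of all genes by 1.37 on the log2 scale and the split of all calls to 635 higher and 472 lower, where it had been 322 and 751. Log2 fold changes that changed sign without scaling were those of Apc (0.87), Fzd5 (0.96), Fzd7 (0.55), Lgr5 (1.08), Rspo3 (1.24), Tbx3 (0.12), Tcf7l2 (0.96) and Znrf3 (0.19); under upper quartile scaling Rspo3 changed to 0.13. None of these passed a test. Leaving out 1 tumour leaves no residual degree of freedom, so it gave values with no test: Wnt7b at 9.52 and 9.65 with a prior count of 2, and Fzd4 at -4.12 and -5.20. No paired analysis was possible because the labels link no tumour to a normal liver of the same mouse. Depth limits the genes with under 10 counts.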
